A study of Mus musculus with 8 samples.

Results

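E-cadherin, encoded by Cdh1, was followed together with its lymphocyte receptors and its catenins in mouse spleen NK cells. The 7 genes were Cdh1, the receptor genes Klrg1, Itgae and Itgb7, and the catenin genes Ctnnb1, Ctnna1 and Ctnnd1. They were chosen by the measured log2 difference in Cdh1 signal between these same ChAT_positive and ChAT_negative arrays, so every difference of a member between the groups below is a description and carries no test. A probe was taken as a member's where the RefSeq accession on the array mapped to its symbol. That gave 1 probe for each of 6 of the 7 genes, out of 20284 genes named on the array. No probe was matched to Itgae, which encodes the alpha E chain (CD103), so it was not analysed here.

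RNA was measured on 8 one-colour arrays, 4 from ChAT_positive and 4 from ChAT_negative pools. Both groups were NK cells that were magnetically enriched from spleens of mice carrying a ChAT-eGFP reporter, in which green fluorescence marks the gene for the acetylcholine-making enzyme choline acetyltransferase. ChAT_positive cells were sorted with the eGFP signal and ChAT_negative cells without it, and each sample pooled cells of 2 to 4 mice. The labels used here give neither the age or strain of the mice nor whether pools shared animals, so the p-values below measure the spread between these pools, which may be technical in part.

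Between 50.2% and 63.2% of the non-control spots of an array were well above background, the scanner software's own detection flag. Slide and scan followed the groups, so for every difference given here their effect and that of the group cannot be told apart. Chat, the gene behind the sort, was higher in ChAT_positive pools by 1.104 on the log2 scale (SE 0.20, limma adjusted p = 0.0201). That call was lost without ChAT_positive replicate 3 or ChAT_negative replicate 4 (limma adjusted p up to 0.0648). Its signal was well above background on all 8 arrays, ChAT_negative ones included. Markers fixed for NK cells, such as Nkg7 and Gzma, were detected on every array, and none of the 14 on the array was below background throughout.

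E-cadherin is a transmembrane adhesion protein that binds itself across epithelial junctions through calcium-dependent extracellular repeats. Its cytoplasmic tail holds p120-catenin (Ctnnd1) near the membrane and beta-catenin (Ctnnb1) farther along, and beta-catenin links it to actin through alpha-catenin (Ctnna1). Lymphocytes read E-cadherin with 2 kinds of receptor. KLRG1 is an inhibitory lectin-like receptor of mature NK cells and effector T cells, and the integrin formed by the alpha E and beta 7 chains holds lymphocytes at epithelium. E-cadherin itself is not confined to epithelium, and some myeloid cells and mast cells of the mouse make it.

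Signals are given as log2 of the processed intensity minus the 75th percentile of the same array, so 0 is the brightness of the probe at that percentile. They compare 1 probe across arrays and do not rank genes against each other. Cdh1 gave -5.07, -7.03, -5.58 and -5.00 in ChAT_positive replicates 1 to 4, against -0.24, -1.86, -0.91 and -1.08 in ChAT_negative replicates 1 to 4. The groups stood 3.14 apart at their nearest arrays. The means were -5.67 ± 0.94 in ChAT_positive and -1.02 ± 0.67 in ChAT_negative pools (SD, n = 4 each), a difference of -4.65 (SE 0.48). In bulk pools such as these, fewer cells of a type and less RNA per cell cannot be told apart.

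The Cdh1 probe was printed in 10 spots on every array, which gives the measurement error within an array. On ChAT_positive arrays 7, 0, 0 and 4 of the 10 spots were well above background in replicates 1 to 4, against 10 of 10 on each ChAT_negative array. Processed intensities averaged 70.3, 13.4, 38.5 and 82.5 on the ChAT_positive arrays, and 1800, 575, 1662 and 995 on the ChAT_negative arrays. No ChAT_positive spot exceeded 131.2, and no ChAT_negative spot fell under 519. The ChAT_positive signal thus lay at the edge of detection, while the ChAT_negative signal was measured in every spot. Spots of 1 ChAT_negative array differed by a log2 SD of 0.071 to 0.088, and the SD between those arrays was 0.67. Spot error covers the printing and scanning of 1 array only, not labelling or the pools.

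**Figure D1:**
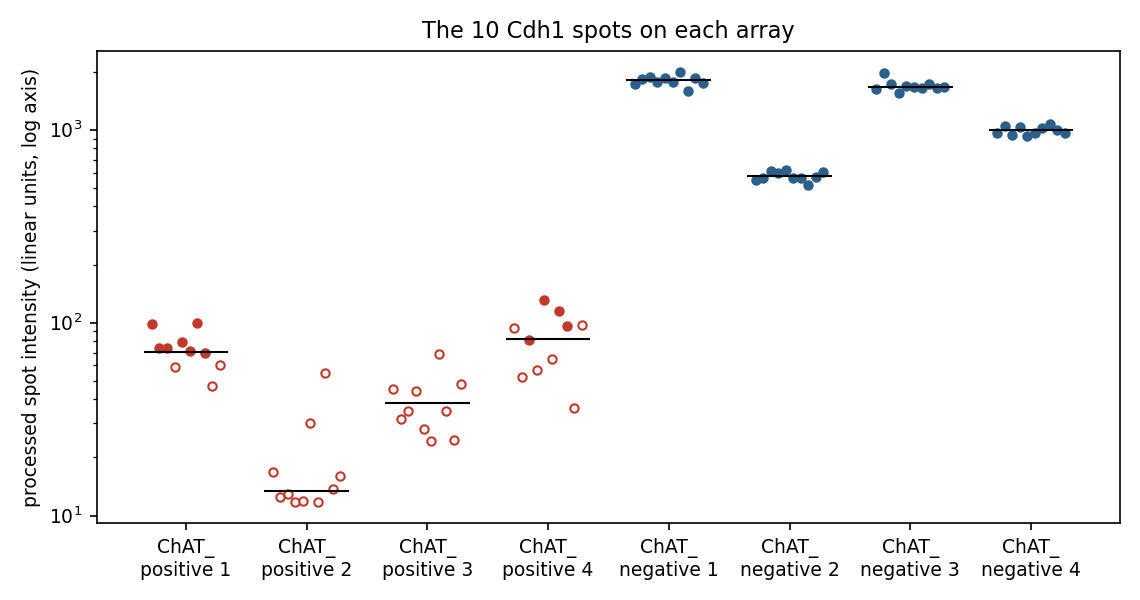
Processed intensity (linear units on a log axis) of each of the 10 Cdh1 spots on the 4 ChAT_positive and 4 ChAT_negative arrays. Filled points were well above background, open points were not, and bars are means without outlier-flagged spots. All ChAT_positive spots lie at or below 131.2 and all ChAT_negative spots at or above 519.

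The size of the Cdh1 difference depends on how signal near background is treated. Read as a ratio of intensities, ChAT_positive pools held 25.0-fold less, with the probe well above background on 1 of 4 ChAT_positive arrays. With each array's value set no lower than its dimmest probe still well above background, a choice made after seeing the data, the difference was -3.90 and the fold 14.9. With normexp background correction it was -3.06, or 8.35-fold. Without ChAT_positive replicate 2 it was -4.19, and without ChAT_positive replicate 3 it was -4.68. On neither of these arrays was any spot well above background.

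Klrg1 encodes the inhibitory E-cadherin receptor. It gave 2.95, 3.21, 3.10 and 2.78 in ChAT_positive replicates 1 to 4, against 3.23, 3.496, 3.52 and 3.75 in ChAT_negative replicates 1 to 4. The probe was detected on all 8 arrays. Every ChAT_positive array was lower than every ChAT_negative array, but the nearest pair was only 0.021 apart. The means were 3.01 ± 0.18 in ChAT_positive and 3.499 ± 0.21 in ChAT_negative pools (SD, n = 4 each), a difference of -0.49 (SE 0.15, 95% interval -0.83 to -0.15). It was -0.78 under normexp and -0.27 under median scaling, which moved the median of all genes to 0.24. In the same fit the 14 tested NK markers had a median of -0.57. Their summed signal was 179.5 to 268.3 times the 75th percentile on ChAT_positive and 271.6 to 328.6 times on ChAT_negative arrays. The part of that shift in the Klrg1 difference was not tested. Intervals given for members here and below were not adjusted for the number of genes and are not read as tests.

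Itgb7 encodes the beta 7 integrin chain, which pairs with alpha E to bind E-cadherin and with alpha 4 to bind MAdCAM-1 on gut vessels. It gave 3.48, 3.06, 3.07 and 3.08 in ChAT_positive replicates 1 to 4, against 3.58, 3.15, 3.16 and 3.48 in ChAT_negative replicates 1 to 4. The groups overlapped, and replicate 1 was the brightest array of each. The difference was -0.17 (SE 0.15, 95% interval -0.52 to 0.18), and it was 0.048 under median scaling. Itga4, the alpha 4 partner, was named after its values were seen. It averaged 3.24 ± 0.059 in ChAT_positive and 3.28 ± 0.098 in ChAT_negative pools (SD, n = 4 each), a difference of -0.047 (limma adjusted p = 0.818).

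Ctnnb1 encodes beta-catenin, which serves both at the junction and as the transcriptional arm of Wnt signalling. It gave 3.00, 2.95, 3.19 and 3.21 in ChAT_positive replicates 1 to 4, against 2.95, 2.96, 3.18 and 3.26 in ChAT_negative replicates 1 to 4. The 2 sets of values all but coincided, with replicates 3 and 4 the brighter arrays in both groups. The difference was 0.0018 (SE 0.13, 95% interval -0.28 to 0.29). It was 0.22 under median scaling, close to the shift of all genes there.

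Ctnna1 encodes alpha E-catenin, the actin-binding link of the complex. It gave 2.52, 3.07, 2.89 and 2.58 in ChAT_positive replicates 1 to 4, against 2.80, 3.12, 3.03 and 3.00 in ChAT_negative replicates 1 to 4. The groups overlapped, with ChAT_positive replicates 1 and 4 below every other array. The difference was -0.22 (SE 0.15, 95% interval -0.57 to 0.12), and it was -0.0063 under median scaling and -0.49 under normexp.

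Ctnnd1 encodes p120-catenin, which keeps cadherins at the cell surface. It gave -1.25, -2.07, -1.46 and -1.21 in ChAT_positive replicates 1 to 4, against -1.78, -2.72, -2.16 and -2.39 in ChAT_negative replicates 1 to 4. It had the opposite sign to Cdh1: the means were -1.50 ± 0.40 in ChAT_positive and -2.26 ± 0.40 in ChAT_negative pools (SD, n = 4 each), a difference of 0.76 (SE 0.25, 95% interval 0.20 to 1.32). The groups overlapped because ChAT_positive replicate 2 lay below ChAT_negative replicate 1. Replicate 2 was the dimmest array of each group for this probe.

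**Figure D2:**
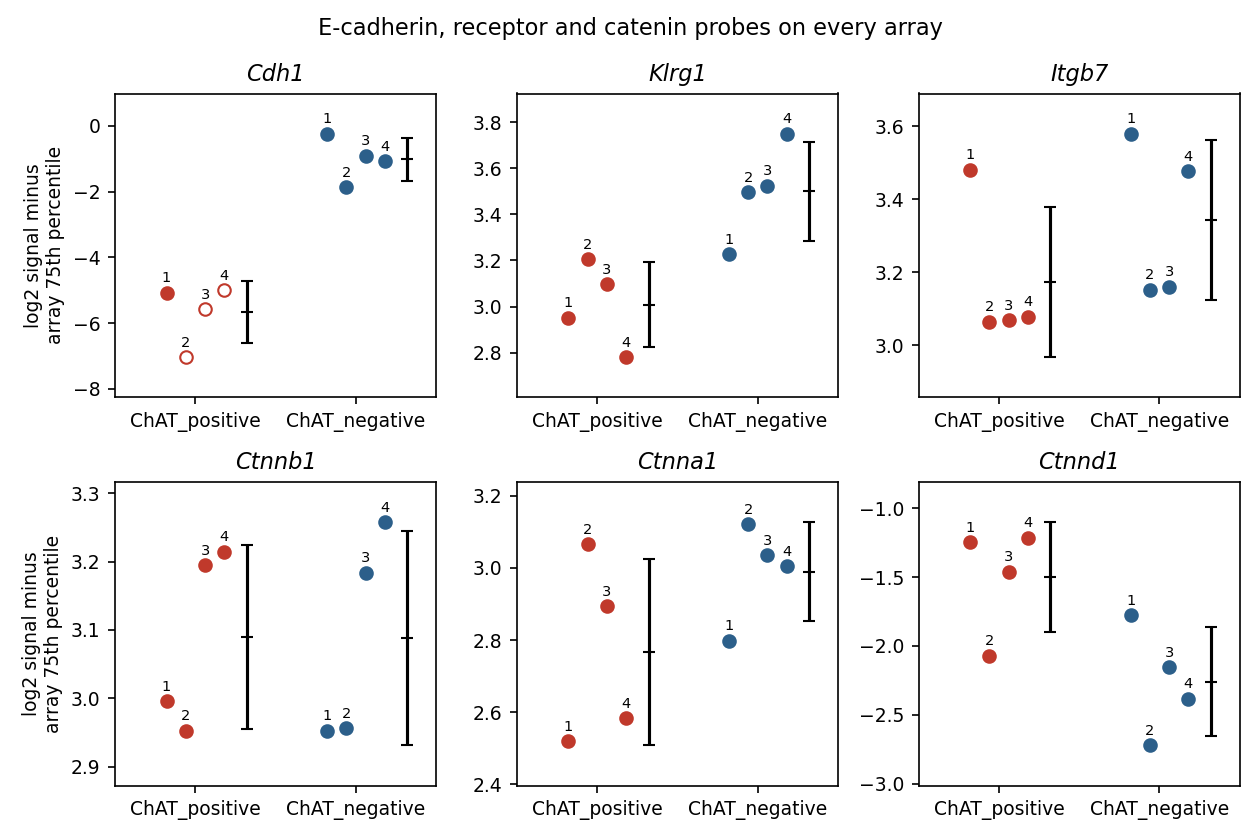
Log2 signal minus the array's 75th percentile for the probe of each of the 6 measured genes, in ChAT_positive and ChAT_negative pools. Points are arrays labelled by replicate number, open where the probe was not well above background, and bars are mean ± SD (n = 4). Cdh1 separates by 3.14 and Klrg1 by 0.021, and the other 4 genes overlap. Each panel has its own scale.

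All 6 measured genes passed the filter on dim probes. Of them 1, Cdh1, passed the threshold of the fit over all genes, where 5.95% of genes did. The groups did not overlap for 2 of 6, where 15.5% of all genes did not overlap. Since the contrast chose the genes, nothing is read from these counts. Their median difference was -0.20, against 0.025 over all genes tested. The largest difference among the receptors and catenins was the 0.76 of Ctnnd1, against -4.65 for the ligand gene.

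The genes closest to Cdh1 in profile were sought among all 13607 tested, as the smallest root mean square distance over the 8 arrays after each gene's own mean was subtracted. Correlations over these 8 arrays are descriptions, since the arrays share the 2 groups and their slides. Cd200r3, an activating CD200 receptor relative of basophils and mast cells, was closest at 0.31 (r = 0.99). It gave -5.36, -7.00, -4.88 and -5.10 in ChAT_positive replicates 1 to 4, against -0.34, -2.04, -0.62 and -1.34 in ChAT_negative replicates 1 to 4. Both genes were lowest in replicate 2 of the ChAT_negative group. Their ChAT_positive values lay mostly below detection, so their order there is not measured and the distance rests in part on such values. Its probe was detected on none (0) of the ChAT_positive and on all 4 ChAT_negative arrays. The signal was at least 15.2-fold lower in ChAT_positive pools. That bound sets the ChAT_negative mean against a raised value for each ChAT_positive array. The raised value was the higher of the gene's own signal and the array's dimmest signal still well above background. For Cd200r3 its own signal was the higher on ChAT_positive replicate 4, at -5.10 against -5.54.

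Next were the chemokine gene Ccl6 at 0.51 (r = 0.98) and Mcpt8, a basophil granule protease, also at 0.51 (r = 0.98). Mcpt8 averaged -0.66 ± 1.34 in ChAT_positive and 3.37 ± 0.94 in ChAT_negative pools (SD, n = 4 each). Alox5, which encodes the 5-lipoxygenase of leukotriene synthesis, followed at 0.70, then the myosin light chain gene Myl9 at 0.71 and the transcription factor gene Foxo6 at 0.74. Alox5 differed by -3.49 (SE 0.52) and Myl9 by -3.496 (SE 0.66). Foxo6 was at least 12.5-fold lower by this probe, while its other probe was above background on 1 ChAT_positive and 2 ChAT_negative arrays. The 6 genes closest to Cdh1 had r of 0.96 to 0.99. The genes closest to Klrg1 lay at 0.070 to 0.087, with r of 0.96 to 0.98. Such distances grow with the size of a gene's differences, so the 2 sets of distances are not compared. Closest to Klrg1 were Slc39a4, B4galnt1, Hgsnat, Pdcd1lg2, Zbtb25 and Nucb1, with differences between -0.55 and -0.45 on the log2 scale.

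**Figure D3:**
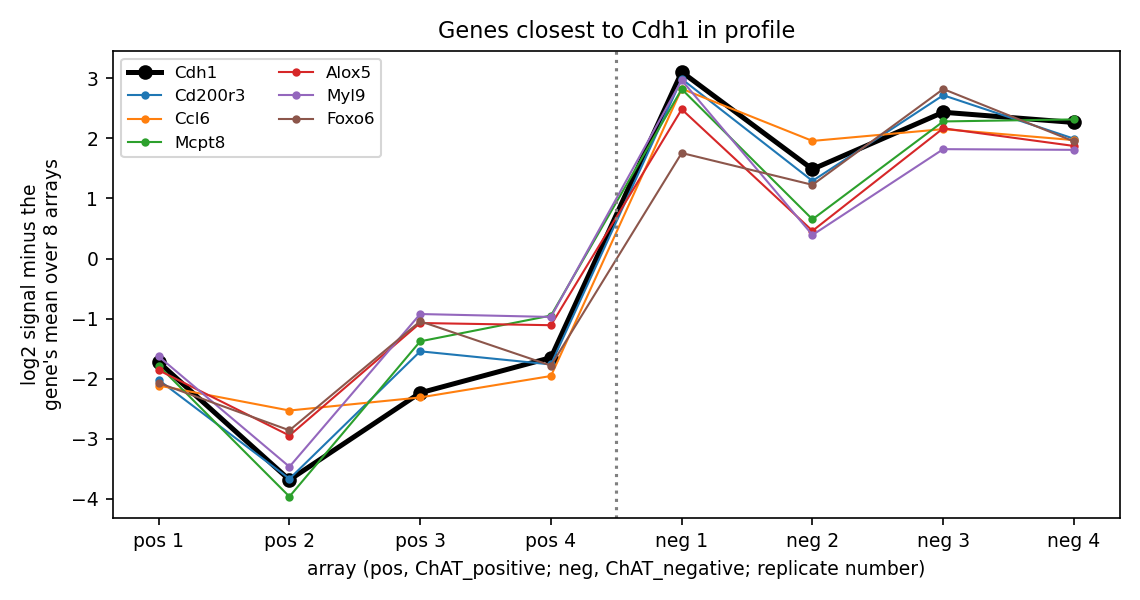
Log2 signal of Cdh1 (black) and of the 6 genes closest to it in profile among those searched, each minus its own mean over the 8 arrays. The x axis gives the 4 ChAT_positive arrays (pos) and the 4 ChAT_negative arrays (neg) by replicate number. Cd200r3 follows Cdh1 most closely, at a root mean square distance of 0.31. ChAT_positive values of Cd200r3, and of Cdh1 on all but 1 array, were not well above background.

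Marker lists of other cell types were read beside Cdh1. Basophil and mast cell markers were the list that moved furthest, with 0 higher and 6 lower of 11 tested and a median of -2.41. Their summed signal was 8.39 to 10.9 times the 75th percentile on ChAT_positive and 25.6 to 55.7 times on ChAT_negative arrays. On ChAT_negative arrays that sum was highest in replicate 1 and lowest in replicate 2, as were Cdh1 and the erythroid and platelet sums. On ChAT_positive arrays it was lowest in replicate 3, as were the bright markers Kit and Cma1, at 1.60 and 0.54. Mcpt8 and Hdc were instead lowest in ChAT_positive replicate 2, at -2.61 and -1.68. Cd200r3 was not detected on ChAT_positive arrays. None of the 13 markers was below background on all 8 arrays. Kit, the stem cell factor receptor gene of mast cells and progenitors, averaged 1.85 ± 0.27 in ChAT_positive and 2.23 ± 0.18 in ChAT_negative pools (SD, n = 4 each). Hdc, which makes histamine, differed by -2.41 (SE 0.34, limma adjusted p = 0.0088). The calls of Hdc and Cd200r3 held without any single array. Mcpt8 lost its call without ChAT_negative replicate 4, and Cma1 kept it in 2 of the 8 fits without a single array. The part of basophils and mast cells in the Cdh1 difference was not tested.

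Epithelial marker sums overlapped between the groups. The sum was carried largely by Ovol2, a transcription factor gene, at 4.08 ± 0.39 in ChAT_positive and 4.04 ± 0.69 in ChAT_negative pools (SD, n = 4 each, log2). The summed signal was 17.5 to 28.2 times the 75th percentile on ChAT_positive and 14.97 to 33.5 times on ChAT_negative arrays. Of the 17 markers 6 were well above background on no array, namely Krt8, Krt5, Cldn3, Cldn4, Esrp2 and Elf3. Of 11 tested, 0 were higher and 1 was lower. That was Spint1, a membrane inhibitor of serine proteases, by a difference of -0.73 (SE 0.15, limma adjusted p = 0.0311). Among the 8 single arrays left out its call held only without ChAT_positive replicate 1 or ChAT_negative replicate 3. With its 2 probes averaged the call was lost (limma adjusted p = 0.379).

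Of the other lists, erythroid markers had 0 higher and 3 lower of 9 tested, with sums of 22.6 to 24.0 on ChAT_positive and 30.6 to 44.9 on ChAT_negative arrays, which did not overlap. The erythroid marker Rhag was well above background on no array. Platelet markers had 0 higher and 2 lower of 10, Ppbp and Clec1b, with sums of 3.39 to 9.24 on ChAT_positive and 7.76 to 24.7 on ChAT_negative arrays. The Clec1b call held in all 8 fits without a single array, and the Ppbp call in 4. Monocyte, macrophage and neutrophil markers had 0 higher and 2 lower of 11, Mpo and Retnlg, with sums of 7.28 to 37.9 on ChAT_positive and 24.6 to 58.6 on ChAT_negative arrays. The Mpo call held in 5 and the Retnlg call in 4 of the 8 fits without a single array. Retnlg was well above background on 0 ChAT_positive and 4 ChAT_negative arrays, so it entered the fit only through the group where it was brighter. By the bound used for Cd200r3 it was at least 3.63-fold lower. Dendritic cell markers had 0 higher and 2 lower of 11, Itgax and Clec9a, with sums of 85.6 to 117.5 on ChAT_positive and 80.2 to 116.2 on ChAT_negative arrays. The Clec9a call was lost without ChAT_positive replicate 3 and under normexp (limma adjusted p = 0.105). Clec9a was well above background on 0 ChAT_positive and 4 ChAT_negative arrays, so it likewise entered the fit only through the brighter group. By the bound used for Cd200r3 it was at least 1.92-fold lower. B cell and plasma cell markers had 6 higher and 0 lower of 11, with sums of 109.6 to 141.5 on ChAT_positive and 80.4 to 129.2 on ChAT_negative arrays. T cell markers had 0 called of 11 by limma and 2 with an unadjusted p under 0.05, with sums of 13.4 to 25.2 on ChAT_positive and 13.4 to 21.4 on ChAT_negative arrays. The T cell marker Themis was well above background on no array. Stromal and endothelial markers had 1 lower of 7, Stab2, whose call held in 2 of the 8 fits without a single array, with sums of 3.76 to 6.26 on ChAT_positive and 4.96 to 7.43 on ChAT_negative arrays, and Cdh5 and Pdgfra were above background on none. NK markers had 3 lower of 14, Klrb1c, Klrk1 and Prf1, and the Prf1 call held only without ChAT_positive replicate 2 among the 8 single arrays left out. Of the 14 NK markers 13 had a difference below 0, and 12 had an unadjusted limma p under 0.05. The share of all genes with such a p was not counted, so nothing is read from the unadjusted counts here or in the lists below.

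**Figure D4:**
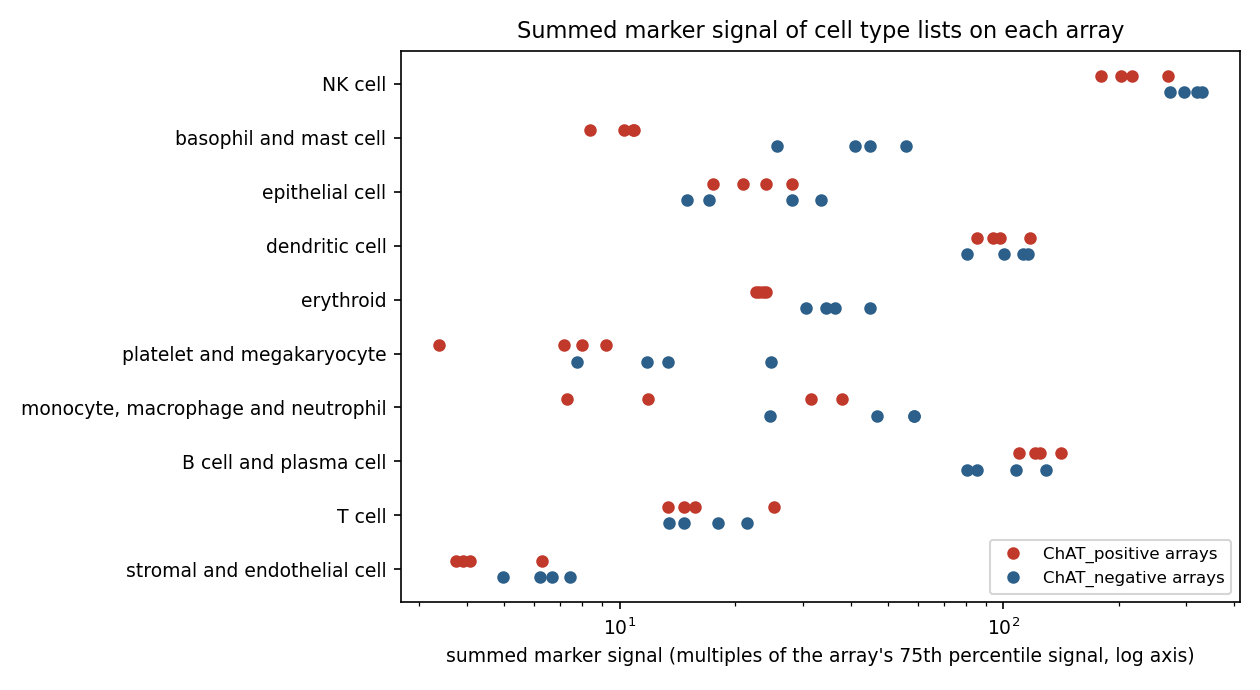
Summed signal of each cell type's marker probes, 1 probe a gene, in multiples of the array's 75th percentile (log axis), with a point for each ChAT_positive and ChAT_negative array. Basophil and mast cell sums lie at 8.39 to 10.9 on ChAT_positive and 25.6 to 55.7 on ChAT_negative arrays, and epithelial sums overlap.

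The wider pathway was read from 10 lists of related genes, 159 of which were tested. Over all lists 2 genes were higher and 7 lower in ChAT_positive pools (limma, adjusted p under 0.05), where 2.81% of all genes were higher and 3.15% lower. The list medians below stand beside 0.025 over all genes. With both arrays numbered 3 left out, 1 list gene was higher and 1 lower.

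Among other cadherins 0 of 15 tested passed the limma threshold, 10 had an unadjusted p under 0.05, and the median was -0.57. Named for their mean signal over all arrays were Cdh26, with a difference of -0.62 (SE 0.17, limma adjusted p = 0.0612), and Cdh17, with 0.55 (SE 0.19, limma adjusted p = 0.122). Cdh26 did not overlap between the groups, at 0.23 ± 0.19 in ChAT_positive and 0.85 ± 0.27 in ChAT_negative pools (SD, n = 4 each). Cdh2 and Cdh4, the N- and R-cadherin genes whose proteins KLRG1 also binds, were named after their values were seen. Cdh2 differed by -0.70 (SE 0.50, limma adjusted p = 0.418), and Cdh4 was well above background on 0 ChAT_positive arrays and 1 ChAT_negative array.

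Other catenins and junction proteins had 1 higher and 2 lower of 18 tested, with a median of -0.082. Ctnnal1, an alpha-catenin relative, rose by 0.96 (SE 0.22, limma adjusted p = 0.0392), at -1.76 ± 0.40 in ChAT_positive and -2.72 ± 0.27 in ChAT_negative pools (SD, n = 4 each). That call held only without ChAT_positive replicate 2 among the 8 single arrays left out. Ajuba, a LIM-domain protein recruited to cadherin junctions, fell by 1.08 (SE 0.11, limma adjusted p = 0.00296). Tjp1, the ZO-1 scaffold of tight junctions, fell by 1.29 (SE 0.31, limma adjusted p = 0.0446), and its call held only without ChAT_positive replicate 4 or ChAT_negative replicate 1. Ajuba kept its call without any single array, and its probe was detected on 3 of 4 ChAT_positive arrays.

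Among repressors and activators of the E-cadherin gene 0 were higher and 1 lower of 13 tested, with a median of -0.019. Ctbp2, a corepressor that ZEB proteins recruit, fell by 1.08 (SE 0.19, limma adjusted p = 0.0201), at -0.65 ± 0.30 in ChAT_positive and 0.43 ± 0.29 in ChAT_negative pools (SD, n = 4 each). Its call was lost without ChAT_positive replicate 3 or ChAT_negative replicate 4. The direct repressors Zeb1 and Zeb2, named after their values were seen, had differences of 0.021 and 0.33 and were not called. Snai1 was well above background on 0 of 8 arrays.

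Proteases and turnover factors of E-cadherin had 0 called of 16 by limma and 4 with an unadjusted p under 0.05, with a median of 0.11. Named by the same rule were the trafficking GTPase genes Arf6 and Dnm2, with differences of -0.12 and 0.11 (limma adjusted p = 0.646 and 0.69). Arf6 was 0.095 under median scaling, and Dnm2 was -0.069 under normexp. The beta-catenin destruction complex had 0 called of 17 by limma and 2 with an unadjusted p under 0.05, with a median of 0.042 and all differences between -0.26 and 0.36. Skp1 and Gsk3a, named likewise, differed by 0.052 and 0.032 (limma adjusted p = 0.84 and 0.908), and both signs changed without ChAT_positive replicate 3. Among TCF/LEF factors, coactivators and targets of beta-catenin 0 were higher and 1 lower of 20, with a median of -0.034. Nkd2, an antagonist of Wnt signalling, fell by 0.64 (SE 0.16, limma adjusted p = 0.0498), a call lost whichever single array was left out.

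Other integrins had 0 higher and 1 lower of 15 tested, with a median of -0.37. Itgax, the CD11c chain found on dendritic cells and some NK cells, fell by 1.31 (SE 0.17, limma adjusted p = 0.00647), at 0.12 ± 0.31 in ChAT_positive and 1.42 ± 0.14 in ChAT_negative pools (SD, n = 4 each). Integrin activation and ligand genes had 1 higher and 0 lower of 15, with a median of -0.12. Ptk2, which encodes focal adhesion kinase, rose by 1.60 (SE 0.14, limma adjusted p = 0.00157). It gave -2.70 ± 0.17 in ChAT_positive and -4.30 ± 0.20 in ChAT_negative pools (SD, n = 4 each). Both genes kept their calls without any single array.

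KLRG1 signalling and NK maturation genes had 0 higher and 1 lower of 17, with a median of -0.26. Prdm1, which encodes the Blimp-1 repressor of late lymphocyte differentiation, fell by 1.28 (SE 0.23, limma adjusted p = 0.0197). The phosphatase genes through which the KLRG1 tail can signal, named after their values were seen, showed small differences, at -0.17 for Inpp5d and 0.14 for Ptpn11, and neither was called. Genes of CD103 induction and tissue residency had 0 higher and 1 lower of 16, with a median of -0.087. Ccr9, the receptor for the gut and thymus chemokine CCL25, fell by 2.50 (SE 0.33, limma adjusted p = 0.00671), at -1.95 ± 0.67 in ChAT_positive and 0.55 ± 0.37 in ChAT_negative pools (SD, n = 4 each). Prdm1 and Ccr9 kept their calls without any single array.

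**Figure D5:**
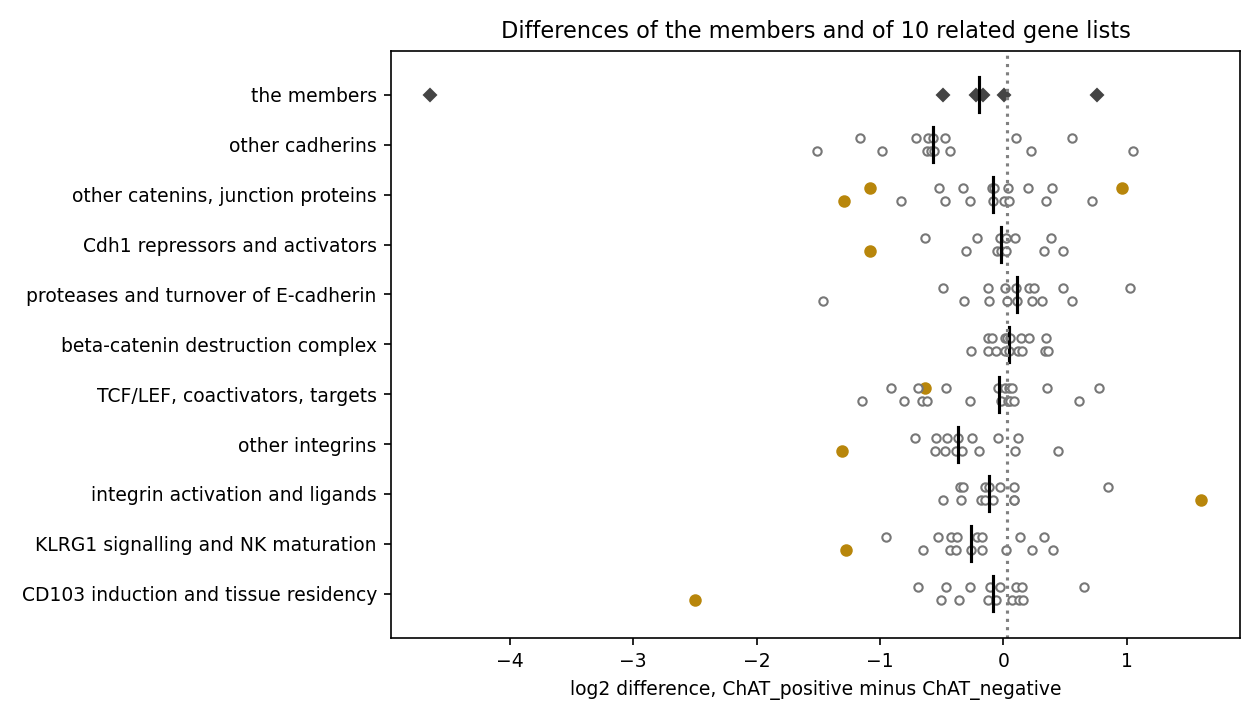
Log2 difference, ChAT_positive minus ChAT_negative, of the 6 measured members (diamonds, no test) and of the tested genes of 10 related lists (circles, filled where limma adjusted p was under 0.05). Short bars are medians and the dotted line is the median of all 13607 genes, 0.025. Cdh1, by whose difference the members were chosen, lies at -4.65, rank 5 from the lowest of all genes tested. The lowest listed gene lies at -2.50, and 9 listed genes are filled.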

How the data were processed

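Per the file headers, the deposited scanner files hold spot intensity values that Agilent Feature Extraction 11.5.1.1 had background-subtracted, not scaled between arrays. A deposited value table holds log2 values, which followed the scanner values less 1 constant per array. The detection flags (other) are the authors' deposited software output. Control spots and 1293 flagged spot values were left out, spots were averaged per probe, and 26762 of 55681 probes were named through RefSeq (GRCm38.p6). No positions are given, as the array annotation uses another build. A probe entered the fit when detected on 4 or more of the 8 arrays, the brightest standing for its gene, which left 13607 genes. The test was the two-sided moderated test of limma 3.58.1 under R 4.3.3, without a block, and p-values were adjusted by Benjamini-Hochberg across those genes at a threshold of 0.05. In simulated data for this comparison (13607 genes, 200 changed), 59.5% of 2-fold and 89.5% of 4-fold changes were recovered. Of the calls made there, 7.03% and 3.76% were false. The simulated noise was independent between genes and arrays, so these shares may not hold for the measured data.

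Members and lists were chosen with earlier results of these data known. Named were all members, up to 4 called genes per list and direction or the 2 brightest, up to 3 called and the 2 brightest markers per cell type, and the 6 nearest profiles. Lists were described by counts and medians. Normexp used median spot signals. A result on an erythroid marker is not reported here.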

Additional observations from a re-analysis of the deposited data

Results flagged for a closer look

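A sample far from the other 3 of its group was found 11 times among 138 groups checked (69 named genes in 2 groups), where chance flags about 1 in 20. Among the members only Itgb7 was affected, at 3.48 in ChAT_positive replicate 1, against 3.06 to 3.08 in the other ChAT_positive pools. ChAT_positive replicate 2 was the highest of its group for Prf1 at 4.87, Cma1 at 1.72 and Pecam1 at 1.97. ChAT_negative replicate 3 was the lowest of its group for Nkg7 at 5.78, Gzma at 5.32 and Irf8 at 4.69. ChAT_negative replicate 2 was the highest for Cdh26 at 1.26 and the lowest for S100a8 at 2.14. ChAT_negative replicate 1 was the highest for St14 at 1.11 and the lowest for Pecam1 at 1.59.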

How the results depend on the processing

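The 19 alternatives left the Cdh1 difference between -4.93 and -3.06, which normexp gave, and between -4.93 and -4.19 with 1 array left out. The count of all genes higher was 382 and lower 428. Median scaling gave 212 and 119, keeping every dim probe 98 and 126, and a replicate block 1002 and 1344. The counts were 21 and 35 without both arrays numbered 3, and 512 and 396 under quantile normalization. Array weights called 577 higher. With 1 array left out, 94 to 305 were higher and 116 to 429 lower. The lowest were without ChAT_negative replicate 4 (94 and 116) and ChAT_positive replicate 3 (100 and 123), and ChAT_positive replicates 1 (155 and 196) and 4 (197 and 284) and ChAT_negative replicates 2 (181 and 251) and 3 (149 and 225) also moved a count by over 1.5 times. List genes numbered 2 higher and 7 lower. The higher count was 5 under quantile normalization or array weights, 4 with all 8 arrays required above background, 6 with a trended and robust variance, 11 with the block, and 1 without both arrays numbered 3 or with no filter. The lower count was 11 under normexp or the trended variance, 12 with array weights, 28 with the block (of which other cadherins gave 8, with 2 higher), 3 under median scaling or no filter, and 1 without both arrays numbered 3. It was 1 to 2 higher and 4 to 8 lower with 1 array left out, with 4 lower without ChAT_positive replicate 3 or ChAT_negative replicate 4. The replicate numbers were not taken to pair the samples: same-numbered arrays deviated together with r of 0.54, 0.66, 0.52 and 0.03, and they held the same position on their slides. ChAT_positive replicate 4 and ChAT_negative replicate 4 each correlated better with an array of number 3. None of 53 named genes outside the members changed sign while called, and 126 of their 1003 alternative values lost a call and 12 gained one. The causes were not tested. Cdh1 gave no value with probes required above background on all 8 arrays. The number of arrays limits precision, and for Cdh1 the background does.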
